A study of Mus musculus with 24 samples.

Results

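The 10 genes described here are immediate early genes: Fos, Fosb, Jun, Junb, Atf3, Egr1, Egr2, Nr4a1, Ier2 and Arc. They were chosen by name, with earlier results of these data known, as the rows of the deposited count table that carry those symbols. Each symbol matched 1 of 56748 genes. RNA sequencing had been carried out on the neural retina and on the eye cup (retinal pigment epithelium, choroid and sclera) of the same 12 mice, giving 24 libraries in 8 groups of 3. The study asked what elevated PRDM13, a zinc finger transcription factor that specifies retinal interneurons, does to the retina once it has formed.

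All mice were C57BL/6J littermates of both sexes. PRDM13-OE mice were heterozygous for an insertion at the Rosa26 locus in which a ubiquitous EF-1α promoter drives the reverse tetracycline transactivator and a TRE3G promoter drives human HA-tagged PRDM13, so the transgene is induced throughout the body by doxycycline (dox) and, as the study's authors describe it, is also expressed slightly without it. Wildtype littermates carried no insertion. The 4 treatment groups were untreated wildtype, wildtype given dox, untreated PRDM13-OE, and PRDM13-OE given dox. Dox was supplied in the drinking water at 2 mg/ml with 10% sucrose for 72 hours from P28, and whether untreated mice drank sucrose was not given in the sources used here. Mice were kept on a standard light and dark cycle. The time of day and the lighting at collection and the interval between death and freezing, all of which these genes can respond to, were not given either.

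Total counts ran from 16034800 to 21513207 in retinas and from 15825059 to 24908314 in eye cups, and no pair of libraries held the same values. Levels of the human transgene itself were not analysed here. Gm13394, a processed pseudogene on chromosome 2 whose level went with the genotype label, stood at 205 to 545 CPM (a gene's share of the library's counts, scaled by TMM factors) in both tissues of 5 of the 6 PRDM13-OE mice and at 2.09 to 8.06 CPM in wildtype libraries. The mouse labelled untreated PRDM13-OE 1 had 4.57 CPM in its retina and 3.33 CPM in its eye cup, like wildtype. Tests of the immediate early genes between groups and between tissues that rest on it are therefore also given without it. Other results include it unless stated. Xist, expressed from the inactive X chromosome, had at most 1 count in wildtype untreated mice 1 and 3, wildtype dox mouse 3 and untreated PRDM13-OE mouse 3, while all 3 PRDM13-OE mice given dox expressed it. Eye cups also held retinal RNA: the summed level of 14 rod markers was 4072 to 58513 CPM there against 59558 to 84557 CPM in retinas, and 11 pigment epithelium and pigment markers summed to 592 to 944 CPM in retinas against 8148 to 46423 CPM in eye cups.

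Immediate early genes are transcribed within minutes of a stimulus without new protein synthesis, through factors such as SRF and CREB that are already present on their promoters. Most encode transcription factors: FOS and JUN family proteins pair to form AP-1, EGR proteins bind GC-rich sites through zinc fingers, and NR4A proteins are orphan nuclear receptors. In the retina Fos and Egr1 are used as reporters of neuronal activity, and handling and tissue dissociation also induce the whole class.

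Promoter sequences were available for 7 of the 10 genes (RefSeq, 300-base windows in GRCm38.p6); Egr1, Ier2 and Arc had none. Each window matched GRCm39, the build of the counts, exactly once. The 4 stretches below lie just upstream of a transcription start and outside annotated exons in GRCm39. They are shown because their letters match short motifs of promoter elements, whose function was not tested here. Capitals mark the CArG box of the serum response element, TGACG (the core of the cyclic AMP response element) or its reverse complement, the EGR site GCGGGGGCG and the TATA box TATAAA.
Egr2, chr10:67373592-67373691, plus strand: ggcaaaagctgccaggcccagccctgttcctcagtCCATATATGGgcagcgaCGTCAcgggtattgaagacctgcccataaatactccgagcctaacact
Fos, chr12:85520514-85520657, plus strand: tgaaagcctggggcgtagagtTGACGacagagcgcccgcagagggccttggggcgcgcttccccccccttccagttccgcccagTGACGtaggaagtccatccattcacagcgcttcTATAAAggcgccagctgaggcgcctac
Fosb, chr7:19043977-19044120, minus strand: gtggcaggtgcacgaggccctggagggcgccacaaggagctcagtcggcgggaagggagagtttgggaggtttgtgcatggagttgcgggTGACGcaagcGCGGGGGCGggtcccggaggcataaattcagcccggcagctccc
Junb, chr8:85705378-85705527, minus strand: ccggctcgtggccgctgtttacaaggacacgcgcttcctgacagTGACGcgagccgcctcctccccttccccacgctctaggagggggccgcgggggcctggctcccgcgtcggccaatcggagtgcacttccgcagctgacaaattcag

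Over the full windows and both strands, TGACG was found in 6 of the 7 genes with a promoter sequence, Fos, Fosb, Junb, Atf3, Egr2 and Nr4a1, and in 20.8% of all 32851 promoter windows. The CArG box was found in Egr2 and in 1.63% of all windows. GCGGGGGCG was found in Fosb and Nr4a1 (2.91% of all windows) and TATAAA in Fos and Junb (13.6% of all windows). Neither the full element TGACGTCA, present in 1.79% of all windows, nor the AP-1 site TGAGTCA, present in 5.20%, was found in any of the 7, and none of the motifs searched was found in the window of Jun. These matches describe the letters of the windows.

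In the neural retina, Egr1 was called higher in PRDM13-OE mice given dox than in wildtype mice given dox, by 1.67 on the log2 scale. Egr2 was also called, on few counts, and is given below as a description of those counts. Junb was 0.87 higher on the log2 scale, which passed the adjusted p but not the fold cutoff, and no immediate early gene fell. The comparison holds dox constant and asks what the induced transgene adds. Called here means a log2 change past 1 together with an adjusted p under 0.05, from edgeR's quasi-likelihood test with Benjamini-Hochberg correction over all 20560 genes tested. By that rule 2 of the 10 genes were called, and 2.41% of all genes tested were. Neither call held under every tool: DESeq2 called 0 of the 10, edgeR with robust fitting called 0, and edgeR with all 12 retinas in 1 fit called Egr2 (3.15) but not Egr1 (1.68). Egr2 had 8 counts over the 3 wildtype retinas given dox, so it passed the minimum of 10 summed counts only through the group where it was high. The stricter filter of edgeR (filterByExpr) left it out, which leaves Egr1 as the only gene called, and nothing is rested on the Egr2 call. In bulk tissue, a change in the number of cells of a type and a change in RNA per cell cannot be told apart.

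Egr1, a zinc finger factor induced by neuronal activity and growth factors (chr18:34992876-34998037, plus strand), had retinal levels in mice 1 to 3 of 282, 122 and 133 CPM in PRDM13-OE given dox, against 93.8, 55.3 and 18.8 CPM in wildtype given dox. The levels were 113, 59.7 and 29.9 CPM in untreated wildtype and 103, 19.4 and 44.0 CPM in untreated PRDM13-OE. All 3 retinas with the induced transgene thus lay above the other 9, although the other groups were themselves widely spread. The mean was 179 ± 89.4 CPM (SD, n = 3) against 55.9 ± 37.5 CPM (SD, n = 3) in wildtype given dox, a log2 change of 1.67 (SE 0.44, 95% interval 0.71 to 2.63, adjusted p = 0.0282 by edgeR). The call was lost without any 1 of the 3 PRDM13-OE mice given dox (log2 change 1.17, 1.88 and 1.84 without mice 1, 2 and 3) or without wildtype dox mouse 2 (1.66). It was kept without wildtype dox mouse 1 (2.26) and without wildtype dox mouse 3 (1.26), which leaves only mice that expressed Xist.

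Egr2, the paralogue best known for its role in myelinating Schwann cells and in the hindbrain (chr10:67371305-67378018, plus strand), was near the limit of detection. Its raw counts in mice 1 to 3 were 33, 6 and 35 in PRDM13-OE given dox and 1, 7 and 0 in wildtype given dox. They were 0, 2 and 0 in untreated wildtype and 4, 2 and 2 in untreated PRDM13-OE. PRDM13-OE dox mice 1 and 3 stood apart from every other retina, whereas mouse 2 lay below wildtype dox mouse 2. The log2 change was 3.14 (SE 0.83, 95% interval 1.33 to 4.95, adjusted p = 0.0282 by edgeR). Summed over 3 retinas each, 74 counts against 8 gave a ratio per total count of 9.65, with a 95% interval of 4.65 to 23.2 that covers counting error only. The call was lost without PRDM13-OE dox mouse 1 (2.82) or 3 (2.85) and without wildtype dox mouse 1 (2.77) or 3 (2.61), and without wildtype dox mouse 2 the change was 5.25. The Egr2 windows above include the stretch with the CArG box, in front of a second start site inside the gene, and the counts do not separate its start sites.

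**Figure D1:**
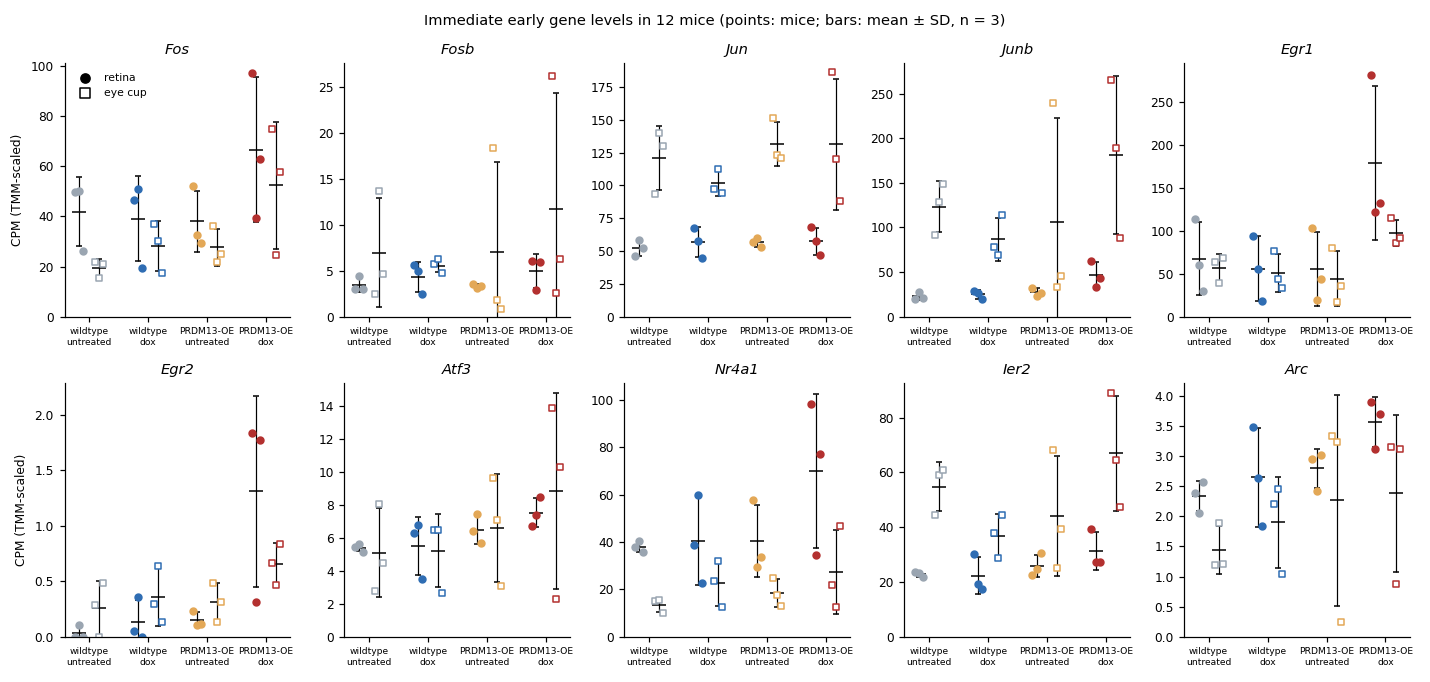
Level of each immediate early gene by group, in CPM (vertical axis, from 0, scaled for each panel), in retinas (filled circles) and eye cups (open squares); each point is 1 library and the bars are the mean ± SD of 3, cut at 0. Egr1 and Junb in the retina stand higher in all 3 PRDM13-OE mice given dox than in the other 9 retinas, and Egr2 stands apart in 2 of the 3.

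Junb, the AP-1 subunit that pairs with FOS proteins and can restrain JUN (chr8:85701113-85705347, minus strand), measured 62.0, 33.0 and 43.6 CPM in the 3 retinas of PRDM13-OE mice given dox. It measured 29.1, 26.9 and 19.3 CPM in wildtype given dox, 19.5, 27.9 and 20.7 CPM in untreated wildtype, and 32.4, 23.6 and 27.1 CPM in untreated PRDM13-OE. As with Egr1, the 3 retinas with the induced transgene were the highest of the 12. The log2 change against wildtype given dox was 0.87 (SE 0.20, 95% interval 0.44 to 1.30, adjusted p = 0.0128 by edgeR), and 12.5% of all genes tested passed the adjusted p alone. Without PRDM13-OE dox mouse 2 it passed the fold cutoff as well, at 1.06, and without PRDM13-OE dox mouse 1 it was 0.59. With robust fitting, and with lens crystallins as a covariate, Junb no longer passed the adjusted p. Over 14 alternatives its log2 change ran from 0.59 to 1.27. The 3′ end of Junb overlaps Prdx2 on the opposite strand, and whether counting used strand was not given in the sources used here. Prdx2 itself measured 215 CPM against 218 CPM, a log2 difference of -0.03 (adjusted p = 0.785 by edgeR).

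The other AP-1 genes were not called. Fos, the classical activity reporter and partner of JUN proteins, measured 97.0, 39.5 and 62.9 CPM in PRDM13-OE given dox and 46.4, 51.0 and 19.6 CPM in wildtype given dox. Untreated retinas measured 49.5, 50.0 and 26.1 CPM in wildtype and 51.9, 32.7 and 29.5 CPM in PRDM13-OE. The groups overlapped through PRDM13-OE dox mouse 2, and the log2 difference of 0.76 against wildtype given dox did not pass (adjusted p = 0.156 by edgeR). Fosb, a close relative of Fos, lay between 2.45 and 6.07 CPM in all 12 retinas, with a log2 difference of 0.19 (adjusted p = 0.751 by edgeR). Jun, the founding JUN protein and a marker of stressed and injured neurons, ran from 45.0 to 68.0 CPM across the 12 retinas and had a log2 difference of 0.01 (adjusted p = 0.970 by edgeR). Atf3, a stress-induced factor that dimerises with JUN proteins, was 6.74, 7.41 and 8.47 CPM against 6.30, 6.78 and 3.51 CPM, a log2 difference of 0.44 (adjusted p = 0.207 by edgeR). The differences for Fosb and Jun turned below 0 without wildtype dox mouse 3, and that for Jun also without PRDM13-OE dox mouse 1.

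Nr4a1, an orphan nuclear receptor induced by calcium and cyclic AMP signals, measured 98.3, 34.4 and 77.1 CPM in PRDM13-OE retinas given dox and 38.9, 59.9 and 22.7 CPM in wildtype retinas given dox. Its log2 difference was 0.78 (adjusted p = 0.174 by edgeR), and mouse 2 of the PRDM13-OE group lay inside the wildtype range, as it did for Fos and Egr2. Without that mouse Nr4a1 was called, at 1.10, as were 336 of 19989 genes tested. Ier2, an early growth response nuclear protein, measured 39.3, 27.2 and 27.4 CPM against 30.2, 19.4 and 17.4 CPM, a log2 difference of 0.48 (adjusted p = 0.123 by edgeR). Arc, which regulates glutamate receptor trafficking at synapses, measured 3.90, 3.11 and 3.70 CPM against 3.48, 2.63 and 1.84 CPM, a log2 difference of 0.42 (adjusted p = 0.283 by edgeR).

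Across the 10 genes, all log2 differences were above 0, with a median of 0.62 against 0.01 over all genes tested, and 6 of the 10 had an unadjusted p under 0.05, as did 26.6% of all genes tested. All 3 PRDM13-OE retinas given dox lay above all 3 wildtype retinas given dox for 2 of the 10 genes, Egr1 and Junb, and for 16.4% of all genes tested. PRDM13-OE dox mouse 1 was the highest of the 12 retinas for 9 of the 10 genes, the exception being Atf3. Wildtype dox mouse 3 was the lowest retina for all 10, Egr2 by a tie at 0 counts. The lowest and the highest animal across the class were therefore both in this comparison.

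**Figure D2:**
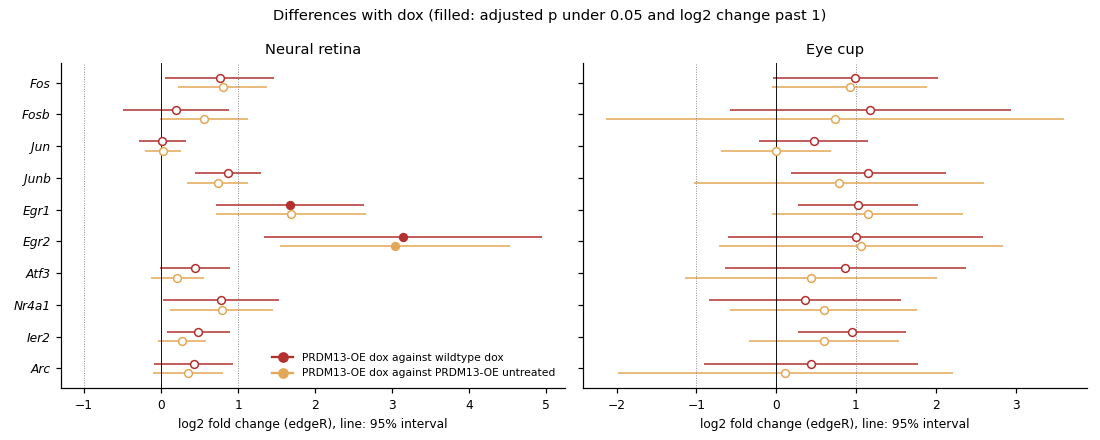
Log2 change of each gene with its 95% interval (horizontal axis) in PRDM13-OE given dox against wildtype given dox and against untreated PRDM13-OE, in retina and eye cup; filled markers are genes called. Egr2 was called in both retinal comparisons, on few counts, Egr1 against wildtype given dox only, and none was called in the eye cup.

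Markers of several other cell types moved in the same retinas, but not all did. Müller glia markers summed to 7011 to 7334 CPM in PRDM13-OE given dox and to 6209 to 7371 CPM in the other 9 retinas. In the same order, amacrine markers summed to 1201 to 1218 CPM against 1225 to 1396 CPM. Ganglion cell markers summed to 1093 to 1160 CPM against 1151 to 1371 CPM. Summed rod markers were 59558 to 66276 CPM in PRDM13-OE given dox and 77690 to 84557 CPM in the other 9 retinas, with 10 of 14 lower at an adjusted p under 0.05 against wildtype given dox. Endothelial markers summed to 144 to 172 CPM against 248 to 323 CPM (4 of 7 lower). The 5 blood genes summed to 0.669 to 1.12 CPM against 20.4 to 73.4 CPM (5 of 5 lower), with the globin gene Hba-a2 at 0 in all 3. The retinas with higher Egr1 and Junb were thus also those with almost no red cell RNA. Microglia and macrophage markers summed to 66.2 to 73.3 CPM against 46.1 to 64.6 CPM (1 of 9 higher). Lens crystallins summed to 3.35 to 27.2 CPM against 111 to 10674 CPM in wildtype given dox (14 of 14 lower), with the highest sums in wildtype dox mice 1 and 2. The part of these differences in the levels of the immediate early genes was not tested. Crystallins did not overlap between the 2 groups given dox, so a fit with their level as a covariate cannot decide this. In that fit, over all 12 retinas, Egr1 was called at 4.50 and Ier2 at 1.02, and 173 of 22538 genes tested were called. Egr2 was not called there, at 3.17. The fit of the same 12 retinas without the covariate had called Egr2 at 3.15 but neither Egr1, at 1.68, nor Ier2, at 0.49. It called 430 of 22538 genes tested.

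Against untreated PRDM13-OE mice, which share the genotype but not the dox, the retinas of PRDM13-OE mice given dox had no called gene other than Egr2. Egr2 passed the count minimum only through the group where it was high, and with filterByExpr, which left it out, 0 of the 10 were called. This comparison uses the same 3 PRDM13-OE dox retinas as the one above. Egr2 differed by 3.04 on the log2 scale (SE 0.69, 95% interval 1.55 to 4.54, adjusted p = 0.0213 by edgeR), making 1 of 10 genes called against 1.04% of all 20603 genes tested. Its summed counts were 74 against 8, a ratio of 8.92 with a 95% counting interval of 4.30 to 21.4. These values describe its counts. With the crystallin covariate over the 12 retinas Egr2 was not called, at 3.05, and Egr1 was, at 2.42. That fit called 223 of 22538 genes tested. Egr1 differed by 1.69 (SE 0.45, adjusted p = 0.0504 by edgeR) and Junb by 0.73 (SE 0.18, adjusted p = 0.0378 by edgeR), and 5.0% of all genes passed the adjusted p alone. With Fos and Nr4a1, 5 of the 10 had an unadjusted p under 0.05, against 15.6% of all genes tested. All 3 retinas with dox lay above all 3 without it for 4 of the 10 genes and for 10.8% of all genes tested. These were Egr1, Junb, Arc and Egr2, the last on few counts and with the limit given above. All 10 differences were above 0 with a median of 0.65.

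The count of called genes in this comparison depended on single animals. Without the mouse labelled untreated PRDM13-OE 1, which lacked the genotype's Gm13394 level, 4 genes were called, against 1.14% of all genes tested. They were Fos at 1.09, Nr4a1 at 1.14, Egr1 at 2.49 and Egr2 at 3.45. Egr2 again passed the count minimum only through the group where it was high, so nothing is rested on its call. Without PRDM13-OE dox mouse 2, 3 were called: Fos at 1.07, Nr4a1 at 1.11 and, with the same limit, Egr2 at 3.51, against 165 of 20039 genes tested. None was called without any 1 of PRDM13-OE dox mice 1 and 3 or untreated PRDM13-OE mice 2 and 3, where Egr2 stood at 2.73, 2.75, 2.86 and 2.89 on the log2 scale. Against untreated wildtype retinas the summed Egr2 counts were 74 against 2, a ratio per total count of 43.4 with a 95% counting interval of 11.6 to 365.

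Dox without the transgene and the transgene without dox called no immediate early gene in the retina. Wildtype mice given dox differed from untreated wildtype by -0.27 (Egr1) to 0.32 (Fosb) on the log2 scale for the 9 genes other than Egr2, which had 8 counts against 2. By edgeR 0 of the 10 were called, 0 had an unadjusted p under 0.05 and DESeq2 called 0, against 0.00485% of all genes tested called and 9.32% at an unadjusted p under 0.05. Untreated PRDM13-OE differed from untreated wildtype by -0.28 (Egr1) to 0.30 (Junb), again leaving out Egr2. By edgeR 0 of the 10 were called and 0 had an unadjusted p under 0.05, DESeq2 called 0, and the background was 0.0% of 20668 genes called and 3.76% at an unadjusted p under 0.05. Without the mouse labelled untreated PRDM13-OE 1, Egr2 fell below the count minimum, 0 of the other 9 were called by edgeR and 3 had an unadjusted p under 0.05 (6.46% of all genes tested), Egr1 at -1.09, Nr4a1 at -0.26 and Ier2 at 0.29. With all mice, in both comparisons the 95% intervals of Egr1, the most spread gene after Egr2, still allowed changes larger than 1 in size.

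The interaction of genotype and dox, which asks whether dox changed a gene more in PRDM13-OE than in wildtype mice and uses all 12 retinas, called 0 of the 10 genes by edgeR, against 0.87% of all 22538 genes tested. DESeq2 called 0, and 1 of the 10, Egr1, had an unadjusted p under 0.05, against 14.4% of all genes tested. For Egr1 the difference of log2 changes was 1.96 (SE 0.79, adjusted p = 0.247 by edgeR), and for Junb it was 0.58 (SE 0.28, adjusted p = 0.348 by edgeR). Without the mouse labelled untreated PRDM13-OE 1 edgeR still called 0 of the 10, and 4 had an unadjusted p under 0.05 (13.8% of all genes tested), among them Egr1 at 2.77, Fos at 1.19 and Junb at 0.71. The difference between the dox responses of the 2 genotypes therefore did not pass for any of the 10 in these fits, with intervals that remain wide. Under 3 other settings Egr1 was called: no filter on low counts, mouse number as a block, and the crystallin covariate. Those settings called 464 of 30860, 180 of 22538 and 176 of 22538 genes tested.

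In the eye cup none of the 10 genes was called between treatment groups, and replicates of a group were often far apart. Junb measured 266, 190 and 88.6 CPM in PRDM13-OE given dox and 77.8, 68.7 and 114 CPM in wildtype given dox. Untreated eye cups measured 92.1, 129 and 149 CPM in wildtype and 240, 32.9 and 45.7 CPM in PRDM13-OE. The untreated PRDM13-OE mouse 1, whose Gm13394 was at the wildtype level, thus had the second highest Junb of all eye cups. Surface epithelium markers, 4 keratins and Epcam, also stood highest in the 3 eye cups with the highest Junb. In mice 1 to 3 they summed to 27698, 17406 and 5754 CPM in PRDM13-OE given dox, 5936, 6611 and 12083 CPM in wildtype given dox, 11765, 13020 and 11244 CPM in untreated wildtype, and 19139, 1075 and 1066 CPM in untreated PRDM13-OE. Retinas held 0.220 to 6.18 CPM of them, and in PRDM13-OE against wildtype eye cups given dox edgeR called 0 of the 5, with 1 of 5 at an unadjusted p under 0.05, and DESeq2 called 0 of the 4 to which it gave an adjusted p. The part of these markers in the eye cup levels of Junb, Ier2 and Fosb was not tested. Blood genes differed too, as in the retina. They summed to 12.8 to 15.6 CPM in PRDM13-OE eye cups given dox and 252 to 3755 CPM in the other eye cups. Their part was not tested either. Egr1 measured 115, 86.3 and 91.1 CPM in PRDM13-OE given dox against 75.9, 44.1 and 33.4 CPM in wildtype given dox. Ier2 measured 88.9, 64.4 and 47.5 CPM against 37.7, 28.6 and 44.4 CPM. For Egr1 and Ier2 the 2 groups given dox did not overlap.

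Between PRDM13-OE and wildtype eye cups given dox, all 10 log2 differences were above 0, with a median of 0.97 against 0.05 over all genes. By edgeR 0 of the 10 were called, 3 had an unadjusted p under 0.05, and DESeq2 called 0, against 0.0184% of all 21758 genes tested called and 8.24% at an unadjusted p under 0.05. These 3 were Ier2 at 0.95, Egr1 at 1.03 and Junb at 1.15, each with an adjusted p of 0.597 by edgeR. Without PRDM13-OE dox mouse 3, Junb was called at 1.48 and Ier2 at 1.14, and the calls over all genes went from 4 of 21758 to 1767 of 21237. All 3 eye cups of one group above all 3 of the other was seen for 2 of the 10 genes and for 5.41% of all genes tested.

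Fos in the eye cup measured 74.6, 24.7 and 57.5 CPM in PRDM13-OE given dox, against 37.0, 30.3 and 17.3 CPM in wildtype given dox. Untreated eye cups measured 21.9, 15.4 and 20.8 CPM in wildtype and 36.1, 21.6 and 25.1 CPM in PRDM13-OE. As in the retina, mice 1 and 3 of the PRDM13-OE group given dox were the highest and mouse 2 lay among the others. Fosb ran from 0.809 to 26.1 CPM over the 12 eye cups, against 2.45 to 6.07 CPM over the 12 retinas. Its highest 3 eye cups, at 26.1, 18.3 and 13.7 CPM, came from 3 different groups. Nr4a1 was highest in PRDM13-OE dox mouse 3 at 46.9 CPM and ran from 10.0 to 32.1 CPM in the other 11. Egr2 had 0 to 14 counts per eye cup, with 13, 8 and 14 counts in PRDM13-OE given dox.

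The remaining eye cup comparisons also called none of the 10 genes by edgeR or by DESeq2. Wildtype eye cups given dox had 1 of the 10 at an unadjusted p under 0.05, Ier2, with a difference of -0.64 (adjusted p = 0.101 by edgeR). Of all 21799 genes tested there, edgeR called 0.0% and 29.9% had an unadjusted p under 0.05, while DESeq2 called 1968. In that comparison the summed rod markers were 31777 to 58513 CPM with dox and 4072 to 30833 CPM without, and with that level as a covariate in a fit of all 12 eye cups the difference of Ier2 was -0.21, against -0.62 in the same fit without it. Untreated PRDM13-OE against untreated wildtype gave 0 of 10 with an unadjusted p under 0.05 (background 0.0% of 21588 genes called and 1.87% at that p). PRDM13-OE given dox against untreated PRDM13-OE gave 0 of 10 with an unadjusted p under 0.05 and 9 of 10 differences above 0 (background 0.0139% of 21604 genes called and 4.14% at that p), from -0.00 for Jun to 1.15 for Egr1. The interaction had 1 of the 10 at an unadjusted p under 0.05, Ier2, at 1.25 (SE 0.51, unadjusted p = 0.032 and adjusted p = 0.753 by edgeR; background 0.0% of 23837 genes called and 6.40% at an unadjusted p under 0.05).

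These eye cup comparisons also moved without the mouse labelled untreated PRDM13-OE 1, though edgeR again called 0 of the 10 in each. Untreated PRDM13-OE against untreated wildtype then had 4 of the 10 at an unadjusted p under 0.05 (9.33% of all genes tested), Junb at -1.65, Fosb at -2.44, Egr1 at -1.09 and Ier2 at -0.76, and the called genes went from 0 to 298 of 20998, of which 290 were lower. PRDM13-OE given dox against untreated PRDM13-OE had 5 of the 10 at an unadjusted p under 0.05 (10.8% of all genes tested), among them Junb at 2.17, Fosb at 3.12 and Egr1 at 1.84. The interaction had 4 of the 10 (12.9% of all genes tested), among them Junb at 2.86, Egr1 at 2.16 and Ier2 at 1.76. The 2 mice left in that group were the ones with the lowest surface epithelium markers of all eye cups.

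Jun, Junb and Nr4a1 differed between the 2 tissues of a mouse. With the mouse as a block, edgeR called Jun and Junb higher in the eye cup and Nr4a1 higher in the retina, 3 of 10 against 41.0% of all 26034 genes tested. Jun measured 45.0 to 68.0 CPM in retinas and 88.3 to 186 CPM in eye cups, with no overlap, a log2 difference of -1.12 (SE 0.08, adjusted p = 1.68e-08 by edgeR, eye cup higher in 12 of 12 mice). Junb measured 19.3 to 62.0 CPM in retinas and 32.9 to 266 CPM in eye cups, a log2 difference of -1.89 (SE 0.22, adjusted p = 2.51e-06 by edgeR, eye cup higher in 12 of 12 mice). Its overlapping neighbour Prdx2 was also higher in the eye cup, by 0.63 on the log2 scale at 334 against 217 CPM. Nr4a1 measured 22.7 to 98.3 CPM in retinas and 10.0 to 46.9 CPM in eye cups, a log2 difference of 1.20 (SE 0.13, adjusted p = 8.04e-07 by edgeR, retina higher in 12 of 12 mice).

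Fos, Ier2 and Arc passed the adjusted p but not the fold cutoff between tissues, making 6 of 10 past the adjusted p against 65.5% of all genes tested (68.7% at an unadjusted p under 0.05). Fos was 0.56 higher in the retina (adjusted p = 0.00102 by edgeR) in 12 of 12 mice, Ier2 differed by -0.95 (adjusted p = 2.45e-05 by edgeR), with the eye cup higher in 12 of 12 mice, and Arc was 0.64 higher in the retina (adjusted p = 0.0435 by edgeR) in 10 of 12 mice. Ier2 was called without any 1 of 4 mice, wildtype dox mice 1 and 2 and untreated PRDM13-OE mice 2 and 3, where it passed the cutoff by a small margin (-1.08 at the farthest). Fosb, Egr1, Egr2 and Atf3 did not pass. Partner genes thus went opposite ways, with Fos higher in the retina and its partners Jun and Junb higher in the eye cup. Whether the tissue difference varied among the 4 treatment groups was tested in 1 model over all 24 libraries, and 0 of the 10 genes passed by edgeR, 0 had an unadjusted p under 0.05, DESeq2 called 0 and the background was 0.0% of genes called and 9.44% at an unadjusted p under 0.05. Without the mouse labelled untreated PRDM13-OE 1, Jun, Junb and Nr4a1 were again the genes called between tissues, and in the test among groups 0 of the 10 were called with 2, Junb and Ier2, at an unadjusted p under 0.05 (13.7% of all genes tested).

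**Figure D3:**
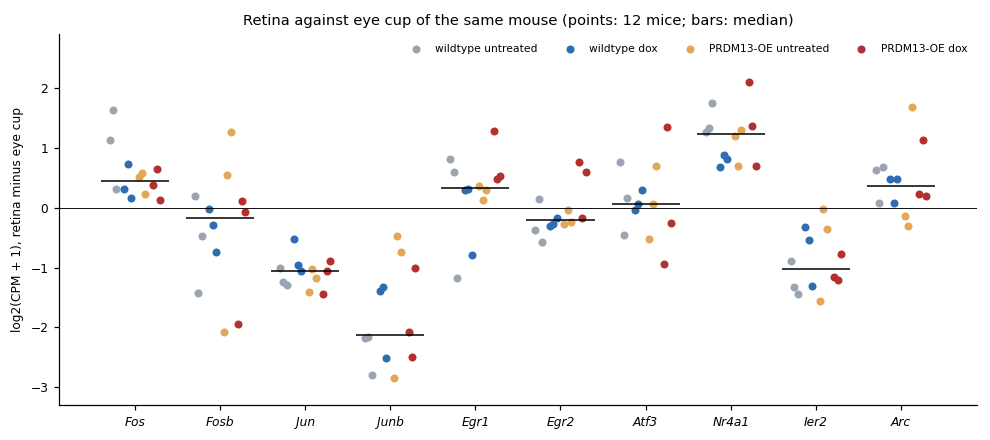
Retina minus eye cup level of each gene in each mouse, as a difference of log2(CPM + 1) (vertical axis); each point is 1 mouse, marked by treatment group, and the bar is the median of 12 mice. Jun, Junb and Ier2 lie below 0 in all 12 mice, and Fos and Nr4a1 above 0 in all 12.

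Levels of different genes were set side by side per length, as FPKM (fragments per kilobase of gene, scaled to library size). The median order in retinas was Fos (19.8), Jun (17.4), Egr1 (16.6), Ier2 (15.5), Junb (11.5), Nr4a1 (10.7), Atf3 (2.91), Arc (0.899), Fosb (0.544) and Egr2 (0.0322 FPKM). Only Nr4a1 and Atf3, and Atf3 and Arc, were neighbours whose 12 libraries did not overlap. In eye cups the order was Junb (44.3), Jun (38.7), Ier2 (29.8), Egr1 (14.9), Fos (11.3), Nr4a1 (4.82), Atf3 (2.83), Fosb (0.806), Arc (0.667) and Egr2 (0.121 FPKM), with overlap between all neighbours. The retinal order differed by group: by mean FPKM Fos led in untreated wildtype (17.2), Jun in wildtype given dox (17.5) and untreated PRDM13-OE (17.3), and Egr1 in PRDM13-OE given dox (38.2), where Fos was at 27.1 and Jun at 17.3 came after Ier2, Junb and Nr4a1.

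Retinal and eye cup levels of the same mouse were compared for each gene, and no relation passed after adjustment over the 10. With the mean of each group removed, the correlation of the 2 tissues' log2(CPM + 1) over 12 mice was highest for Nr4a1 (Pearson r 0.77, Spearman rho 0.78), Fos (0.75 and 0.78), Egr1 (0.75 and 0.71) and Jun (0.70 and 0.70). An exact permutation of mice within groups (two-sided) gave p = 0.061 for Nr4a1, 0.0301 for Fos, 0.0386 for Egr1 and 0.0401 for Jun. Fosb, with r 0.52 and rho 0.60, had an exact permutation p of 0.0301 for r and the lowest for rho, 0.00694. Adjusted over the 10 relations, the exact p-values for r were 0.122 for Nr4a1 and 0.10 for Fos, Fosb, Egr1 and Jun, and the lowest for rho was 0.0694. Over 14055 genes with a mean of at least 1 CPM in both tissues, 3.86% had an r of at least 0.70, and the median was 0.11. The rod markers in eye cups, 4072 to 58513 CPM as given above, show varying retinal RNA there, and its part in these relations was not tested. Without the 2 mice farthest from the retinal median, r fell to 0.52 for Nr4a1, 0.52 for Fos, 0.64 for Egr1 and 0.65 for Jun. Without wildtype untreated mouse 3, Egr1 alone passed after adjustment, with r 0.93. Without the mouse labelled untreated PRDM13-OE 1, r was 0.64 for Egr1 and 0.64 for Fosb.

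For Ier2 the same relation had r 0.07 (exact permutation p = 0.849), for Arc 0.19 and for Junb 0.34. Without the mouse labelled untreated PRDM13-OE 1, r was 0.40 for Ier2 and 0.14 for Junb. Without PRDM13-OE dox mouse 1 it was -0.20 for Ier2. Junb and Ier2 were also the pair of genes most closely related within the eye cup, with r 0.94 over the 12 eye cups after removing group means. The surface epithelium markers given above were spread widely over the same eye cups, and their part in this relation was not tested. With all 12 mice, the 2 genes that varied together in the eye cup were thus among those that tracked the retina of the same mouse least. Their values moved with single mice, and the difference between the relations was not tested.

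**Figure D4:**
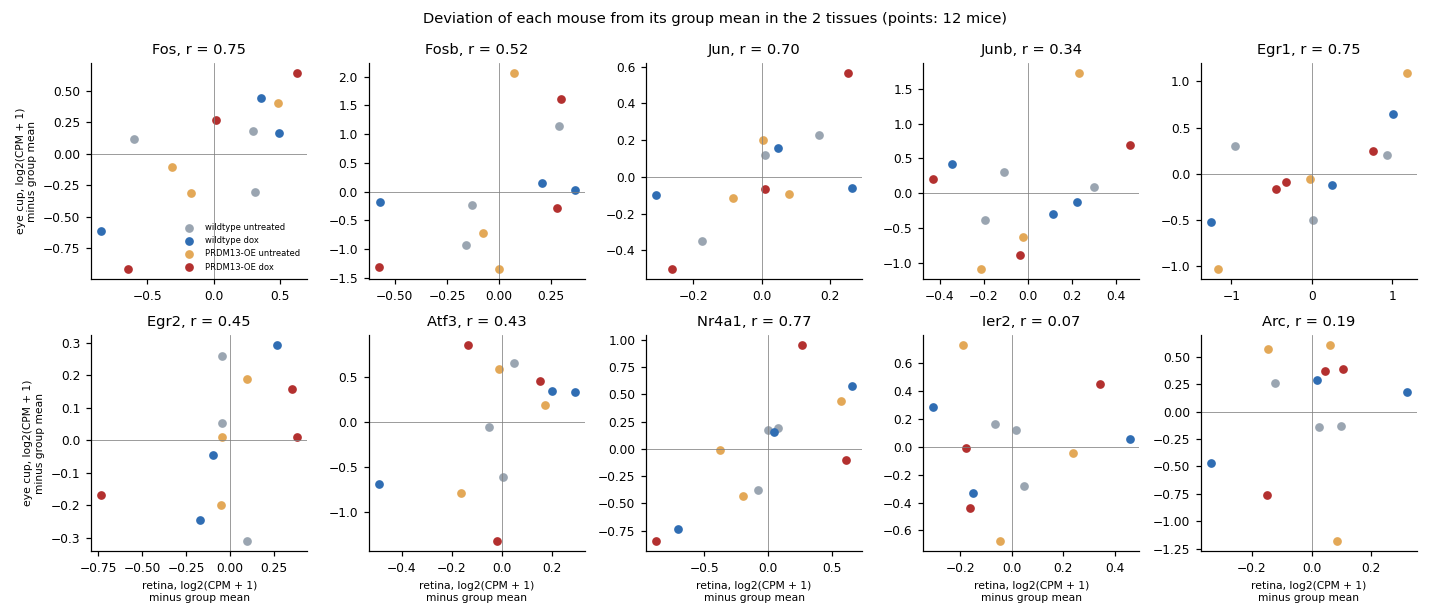
Retinal against eye cup level of each gene in the 12 mice, each as log2(CPM + 1) minus its group mean (both axes); each point is 1 mouse and r is Pearson's. Fos, Egr1, Jun and Nr4a1 have r from 0.70 to 0.77, and Ier2 has r 0.07.

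Within a tissue most pairs of the 10 genes had correlations above 0. Over the 12 retinas with group means removed, all 45 pairs had a correlation above 0, with a median of 0.56 and a range from 0.10 (Jun and Egr2) to 0.87 (Fosb and Junb). Fos and Nr4a1 had r 0.86, and so did Egr2 and Nr4a1. In eye cups 41 of 45 pairs were above 0, with a median of 0.44 and a range from -0.26 (Nr4a1 and Ier2) to 0.94 (Junb and Ier2), and Atf3 and Arc had r 0.87. Over all pairs of genes with a mean of at least 1 CPM, 50.1% were above 0 in retinas and 50.5% in eye cups, with medians of 0.00 and 0.01. These correlations describe 12 libraries in which all genes share a library, its depth and its cell content. They include the mouse labelled untreated PRDM13-OE 1 in its labelled group.

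**Figure D5:**
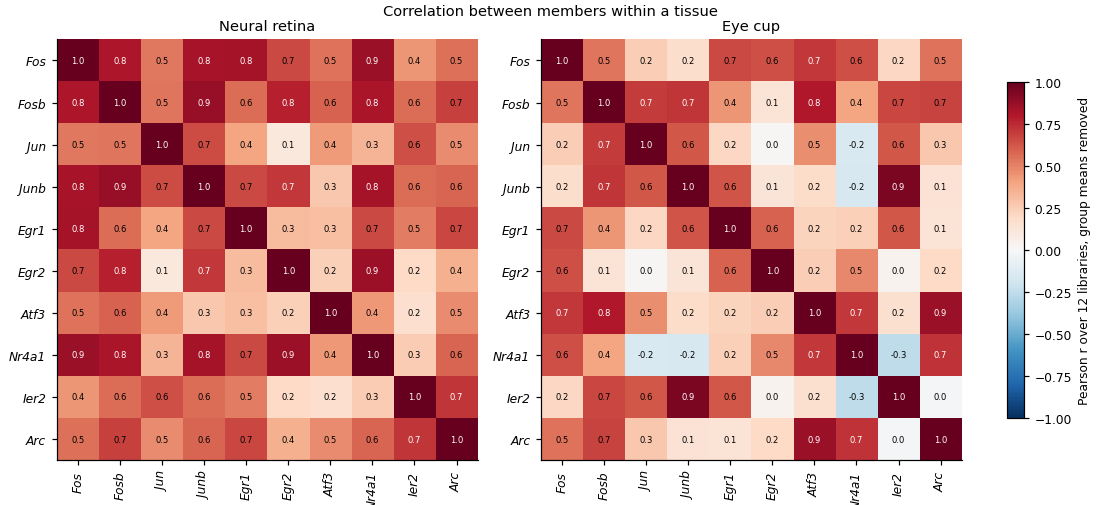
Pearson correlation of each pair of the 10 genes over 12 retinas and over 12 eye cups, on log2(CPM + 1) minus the group mean; colour gives r from -1 to 1. Retinal values are above 0 throughout, from 0.10 to 0.87, and eye cup values run from -0.26 to 0.94.

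Nr4a1, Egr1, Junb and Fosb were among the 83 genes, 0.563% of those compared, whose retinal pattern had r over 0.8 with that of Fos, but not among the 5 closest. Among 14730 genes with a mean of at least 1 CPM, Lsm8 (r 0.94, at 11.4 to 13.8 CPM) and Nhlrc1 (0.93) were closest, followed by Abcb11, Dock1 and Pigx (0.90 each), over the same 12 retinas with group means removed. Nr4a1 ranked 23, Egr1 48, Junb 50 and Fosb 72, while Arc ranked 1027, Atf3 1080, Jun 1216 and Ier2 1903. In the eye cup, among 15803 genes, Pnn (0.94), Dbr1 (0.93), Swt1, 6030458C11Rik and Mtrf1 (0.92 each) were closest. The highest ranked of the other immediate early genes there was Atf3, at 280, followed by Egr1 at 481, Nr4a1 at 549, Arc at 1450 and Fosb at 1589, with Jun, Ier2 and Junb at 5689, 6198 and 6659. The ranking rests on 12 libraries in each tissue and includes the mouse labelled untreated PRDM13-OE 1.

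Beyond the 10, 6 lists of 72 related genes held other AP-1 subunits, other EGR and NR4A factors, early feedback and delayed factors, neuronal activity genes, heat shock genes and upstream regulators. In retinas of PRDM13-OE against wildtype mice given dox, edgeR called 0 of the 69 tested, DESeq2 called 0, 25 had an unadjusted p under 0.05 (26.6% of all genes did), and the median log2 difference was 0.00. At an adjusted p under 0.05 with no fold cutoff, 11 of 69 passed, 5 higher and 6 lower, against the 12.5% of all genes given above. By list these were 0 of 7 AP-1 subunits, 0 of 4 EGR and NR4A factors, 5 of 30 feedback and delayed factors (4 higher, 1 lower), 3 of 8 neuronal activity genes (all lower), 3 of 6 heat shock genes (1 higher, 2 lower) and 0 of 14 upstream regulators.

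The following 4 genes were picked from those 11 after their values were seen. Trib1, a pseudokinase that steers the degradation of C/EBP factors, measured 121 ± 8.65 CPM (SD, n = 3) against 71.2 ± 7.01 CPM (SD, n = 3), a log2 difference of 0.76 (adjusted p = 6.68e-05 by edgeR). Cebpd, a C/EBP factor induced by inflammatory signals, measured 25.2 against 12.9 CPM, a log2 difference of 0.95 (adjusted p = 0.00328 by edgeR). Pcsk1, a protease that processes prohormones, measured 12.5 against 20.6 CPM, a log2 difference of -0.72 (adjusted p = 0.000666 by edgeR). Vgf, a secreted neuropeptide precursor, measured 55.9 against 77.1 CPM, a log2 difference of -0.47 (adjusted p = 0.0182 by edgeR). With robust fitting neither Cebpd nor Vgf passed the adjusted p, and Cebpd did not with the crystallin covariate. Over all alternatives by edgeR or DESeq2 the adjusted p reached 0.250 for Cebpd and 0.131 for Vgf. Pcsk1 and Vgf stood lower in the retinas where Egr1 stood higher. Trib1 also passed the adjusted p against untreated PRDM13-OE, at 0.90, and in the interaction, at 0.91.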

How the data were processed

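Poly(A) RNA from the neural retina and eye cup of 12 mice was sequenced by a commercial provider. The authors deposited raw counts per gene and FPKM (fragments per kilobase, scaled to library size by the authors) for 56748 genes. The submitters' processing notes name CASAVA, HISAT2 and GRCm39 (mm39). The counter, the annotation release and the strand setting were not given in the sources used here. The 60 columns that hold the authors' 12 comparisons (fold changes and p-values) were not used.

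Groups came from the labels. Counts were tested with edgeR 4.0.16 (R 4.3.3; TMM, quasi-likelihood, a minimum of 10 summed counts a gene, Benjamini-Hochberg over all genes tested), with only the 6 libraries of the groups compared, all 12 of a tissue for the interaction, or all 24 with the mouse as a block. Called means adjusted p under 0.05 and a log2 change past 1. Printed CPM used TMM factors over 24 libraries. FPKM was used only to set levels of different genes side by side. Correlations used log2(CPM + 1). Alternatives were DESeq2 1.42.0, library size, other filters, robust fitting, all libraries in 1 fit, a replicate block, marker covariates and leaving out each library. The scripts were tested on simulated data. The 3 mice of a group were separate animals.

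Retina and eye cup pairs come from the labels, which give both tissues of each mouse; the correlation of a mouse's deviations from its group means in the 2 tissues, over all genes, was -0.0024 to 0.19. The members, the 6 wider lists, the markers (rod, Müller glia, amacrine, ganglion, pigment epithelium, lens, blood, endothelial, microglia and macrophage, surface epithelium) and the tests were chosen with earlier results of these data known. Named genes were all 10 members, the 2 largest changes among called genes of each wider list, the 5 genes most like Fos in each tissue, and Gm13394 and Xist as label checks. Trib1, Cebpd, Vgf, Hba-a2, Prdx2 (which overlaps Junb) and, in the retina, Pcsk1 fall outside this rule and were chosen after their values were seen. Promoter windows (250 bases before to 50 after a start) came from RefSeq. Intervals of counts cover counting error only.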

Additional observations from a re-analysis of the deposited data

Results flagged for a closer look

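In the retina, the change of Trib1 with dox differed between the genotypes, at 0.90 on the log2 scale in PRDM13-OE and -0.010 in wildtype mice. The difference was 0.91 (SE 0.11, 95% interval 0.68 to 1.15, adjusted p = 8.88e-05 by edgeR), from 0.85 to 0.99 over 19 alternatives, always in the same direction and under the fold cutoff of 1, and it comes from a gene picked after its values were seen.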

How the results depend on the processing

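In the retina, the 2 genes called in PRDM13-OE against wildtype given dox became 0 under DESeq2, 1 under filterByExpr (which dropped Egr2), 0 with robust fitting, 1 with all 12 libraries in 1 fit, and 0 to 3 without any 1 library. Over all genes tested, DESeq2 called 394 of 20560, filterByExpr 449 of 16151 and robust fitting 445 of 20560. The fit of all 12 libraries called 430 of 22538, and the fits without 1 library called 336 to 507. Against untreated PRDM13-OE, the 1 called gene became 2 with library size, 2 with no filter, 0 under filterByExpr, 2 with the replicate block, 2 with no fold cutoff, and 0 to 4 without any 1 library. In that order, the calls over all genes were 213 of 20603, 329 of 28681, 202 of 16150, 190 of 20603, 1031 of 20603 and 165 to 234. In the retinal interaction, 0 became 1 (Egr1) with no filter, with the replicate block and with the crystallin covariate. Those settings called 464 of 30860, 180 of 22538 and 176 of 22538 genes tested. In the eye cup, 0 became 0 to 2 without any 1 library, and between tissues 3 became 6 with no fold cutoff. The mouse by mouse relation gave 0 to 1 passing genes without any 1 mouse. In the first comparison Fosb (0.19) changed sign, to -0.079, without wildtype dox mouse 3 (0.47 without PRDM13-OE dox mouse 2), and so did Jun (0.01), to -0.12 without wildtype dox mouse 3 and -0.13 without PRDM13-OE dox mouse 1 (0.15 without wildtype dox mouse 1). The causes were not tested. Of the other settings for these counts, 186 left them within 1.5 times, which includes every count that stayed at 0. Most comparisons called none of the 10 to begin with, so this total does not describe the 2 retinal comparisons of PRDM13-OE given dox. Of the settings for single genes, 651 left the call, or its absence, and the direction in place, 26 gained a call and 20 lost one.

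The replicate block used mouse numbers that different animals of different groups share. Same-numbered mice did not pair: in no comparison was every correlation over 0.1, nor did every sample correlate best with its own number. With library size in place of TMM, the median of all genes between tissues moved from 0.04 to 0.21, and Jun was not called, at -0.93. Egr2 rests on 0 to 35 counts per retina, and 3 counts correspond to 0.13 to 0.17 CPM in retinas.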

Other observations

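Between the 2 tissues of a mouse, 38 of the 72 related genes were called by edgeR, 9 higher in the retina and 29 higher in the eye cup, against 41.0% of all genes tested. Over all 26034 genes tested, 4568 were called higher in the retina and 6100 lower. Among 10 AP-1 subunits and partners 7 were called, all lower in the retina. The largest differences were for Batf2 (0.0278 against 1.58 CPM, log2 -5.53) and Batf (0.0255 against 0.669 CPM, log2 -4.52), both partners of JUN proteins in immune cells. Their retinal means lay under the level of 3 counts in a retina (0.13 to 0.17 CPM). The sizes of these differences are therefore not exact, and both calls rest on eye cup counts. Of 30 early feedback and delayed factors 18 were called, 17 of them lower in the retina. Klf4, a zinc finger factor of surface epithelia, measured 2.80 against 126 CPM (log2 -5.09), and Myc, a growth regulator, 1.03 against 10.7 CPM (log2 -3.20).

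The neuronal activity genes went the other way, with 7 of 8 called and all 7 higher in the retina. Pcsk1 differed by 2.72 (18.8 against 3.80 CPM) and Scg2, a secretory granule protein, by 2.68 (458 against 110 CPM). Egr4 was the only called gene of the 4 other EGR and NR4A factors, at 1.75 (4.20 against 1.58 CPM). One of 6 heat shock genes was called, Hspa1b at -1.87, which has a near-identical neighbour in Hspa1a and may share its reads. Of 14 upstream regulators 4 were called, all lower in the retina, led by Elk3, an SRF partner (-2.96), and Rps6ka1, a kinase downstream of ERK (-1.96). The differences were not tested against the cell content of the 2 tissues.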
